A study of Mus musculus with 6 samples.

Results

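The genes described here carry out antigen presentation by major histocompatibility complex (MHC) class II, with the costimulatory proteins that accompany it. They are 10 mouse genes, taken by symbol: Ciita, Cd74, H2-Aa, H2-Ab1, H2-Eb1, H2-DMa, H2-DMb1, Cd80, Cd86 and Cd40. Of these, 9 were among the 19937 genes with a probe set of their own. The only probe set for H2-DMb1 is annotated to H2-DMb2 as well, so H2-DMb1 has no value here.

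The samples were 6 single-colour Affymetrix Mouse Gene ST arrays of C57BL6 hematopoietic cells, 3 labelled EVI1 and 3 labelled EGFP. All cells were Lin-, that is, depleted of cells with mature lineage markers, and came from Rosa26rtTA mice, which carry a doxycycline-dependent transactivator. The arrays labelled EVI1 stand for cells given a lentiviral vector with EVI1 and the green fluorescent protein EGFP joined by an internal ribosome entry site (pRRL.PPT.Tet.Evi1.IRES.EGFP.pre), and those labelled EGFP for cells given the same backbone with EGFP alone (pRRL.PPT.Tet.EGFP.pre). Both groups grew in serum-free medium with the same mix of cytokines (SCF and IL-3 of mouse, Flt3 ligand and IL-11 of human origin) and received doxycycline at 1 µg/ml. Transduction took place 24 h after isolation and doxycycline was added 24 h later, or on the next day in the series' design text. EGFP-positive cells were sorted and RNA taken 24 h after doxycycline in the treatment protocol and 20 h after it in the design text. Nothing in the labels tells whether replicates came from different mice or from 1 culture, so p-values measure only the spread between these arrays, which may be technical. EVI1 is a zinc finger transcription factor of the Mecom locus, and the comparison asks which transcripts differ when it is expressed in progenitors for about a day.

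Class II molecules are surface dimers of an alpha and a beta chain that show peptides from endosomes to CD4 T cells. The transactivator CIITA binds no DNA itself and is recruited by proteins on the X and Y boxes of class II promoters. New dimers travel with the invariant chain CD74, which endosomal proteases trim to a short fragment in the groove. H2-DM then exchanges that fragment for peptide, and H2-O restrains H2-DM. Class II is abundant in dendritic cells, B cells and activated macrophages. CD80 and CD86 on the presenting cell bind CD28 on the T cell, and CD40 receives the signal of CD40 ligand.

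Mecom was examined first as a check of the labels, and it did not pass the test. The brighter of its probe sets read 6.29, 6.18 and 6.49 in the arrays labelled EVI1 and 6.39, 7.53 and 6.86 in those labelled EGFP (log2 fold change -0.60 ± 0.26 SE, limma adjusted p = 0.166). It was thus not higher under the EVI1 label, and since nothing here shows whether the probes match the vector's insert, directions below are those of the labels. As a rough yardstick of dim signal, the 95th percentile of 1027 olfactory receptor genes was 6.99 in the arrays labelled EVI1 and 6.95 in those labelled EGFP. The Mecom means of 6.32 (EVI1) and 6.92 (EGFP) lay under it, so the check of the labels rests on dim signal and cannot decide. The dimmer Mecom probe set differed by -0.23. Probe sets differ in affinity, so levels are compared between arrays for 1 gene and not between genes.

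Part of the class II promoters is shown first, since CIITA acts on class II genes through proteins bound there. RefSeq promoter windows on GRCm38.p6 were found for 5 of the 10 genes (H2-Aa, H2-Eb1, H2-DMa, H2-DMb1 and Cd80) and for 4 of 5 other class II region genes. The 250 bases before the transcription start of H2-Aa and H2-Eb1 are printed with those of H2-Ob and H2-Eb2, a pair of related genes with lower values in the arrays labelled EVI1. Capitals mark matches to CTGATTGG, a Y box with its flank, and to AGNAACNNA, part of an X box, searched on both strands.
H2-Aa, chr17:34287824-34288073, minus strand: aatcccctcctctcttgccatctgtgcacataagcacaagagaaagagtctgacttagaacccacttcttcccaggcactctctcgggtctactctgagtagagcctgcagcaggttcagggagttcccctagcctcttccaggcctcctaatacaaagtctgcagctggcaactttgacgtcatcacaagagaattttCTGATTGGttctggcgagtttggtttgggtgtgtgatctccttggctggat
H2-Eb1, chr17:34305617-34305866, plus strand: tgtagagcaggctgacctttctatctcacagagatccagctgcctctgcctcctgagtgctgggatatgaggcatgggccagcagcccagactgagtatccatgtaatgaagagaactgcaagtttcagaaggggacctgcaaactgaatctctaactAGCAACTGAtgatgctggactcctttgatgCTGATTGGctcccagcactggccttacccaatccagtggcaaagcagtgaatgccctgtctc
H2-Ob, chr17:34238655-34238904, plus strand: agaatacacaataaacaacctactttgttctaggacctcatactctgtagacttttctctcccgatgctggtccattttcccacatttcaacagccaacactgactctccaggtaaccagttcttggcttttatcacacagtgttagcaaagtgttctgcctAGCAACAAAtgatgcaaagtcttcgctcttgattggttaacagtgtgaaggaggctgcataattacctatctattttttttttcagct
H2-Eb2, chr17:34325425-34325674, plus strand: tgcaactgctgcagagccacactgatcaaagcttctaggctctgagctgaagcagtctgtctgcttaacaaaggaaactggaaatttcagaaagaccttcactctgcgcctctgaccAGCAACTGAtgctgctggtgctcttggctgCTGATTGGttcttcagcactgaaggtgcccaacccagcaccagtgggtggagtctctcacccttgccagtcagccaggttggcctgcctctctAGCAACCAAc

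In the H2-Eb1 window the X box match lay 92 to 84 bases before the start and the Y box match 62 to 55 bases before it. H2-Aa held the Y box match, 51 to 44 bases before the start, and no match to the X box letters. Those letters are only part of an X box, so a missing match does not show that the box is absent. H2-Ob held the X box match, 88 to 80 bases before the start, followed by ATTGG 57 to 53 bases before it. In the H2-Eb2 window the X box letters matched 133 to 125 and again 10 to 2 bases before the start, with the Y box match 103 to 96 bases before it. The X box letters were chosen with these class II sequences in view. Of 32851 promoter windows 3.83% held CTGATTGG, 14.4% held AGNAACNNA and 0.517% (170 windows) held both, those of H2-Eb1, H2-Eb2 and H2-Oa among them. The H2-Oa window is not printed, and H2-Oa did not pass (log2 fold change -0.019 ± 0.16 SE, limma adjusted p = 0.967). Whether the matches go with the changes was not tested. CTGATTGG contains ATTGG, the reverse complement of CCAAT, which was in 33.8% of all windows. The H2-DMb1 window held the X box match and ATTGG, 1 of the H2-DMa windows held ATTGG alone, and the Cd80 window held none of the 3 motifs.

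Across the class II genes, the chain genes and Cd86 lay lower in the arrays labelled EVI1 and Cd74 lay higher. By limma, with p-values adjusted over all genes, 3 of the 9 measured members fell (H2-Ab1, H2-Eb1 and Cd86), none rose and 6 did not pass. At an unadjusted p under 0.05, 3 fell and 1 rose. Of all genes tested 18.2% changed, 9.18% fell and 9.06% rose. The median log2 fold change was -0.28 over the 9 members and 0.0060 over all genes. With a replicate block, which compares arrays of the same number, 4 members fell and 1 rose, where 21.9% of all genes changed, 11.0% with a fall and 10.9% with a rise. No label pairs the arrays, and the pairing was taken from these same values, so blocked calls are conditional on it. Without EVI1 replicate 3 no member passed in the unblocked fit (4 had an unadjusted p under 0.05), and 2289 genes passed over the whole table. Without EGFP replicate 3 only Cd86 passed.

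**Figure D1:**
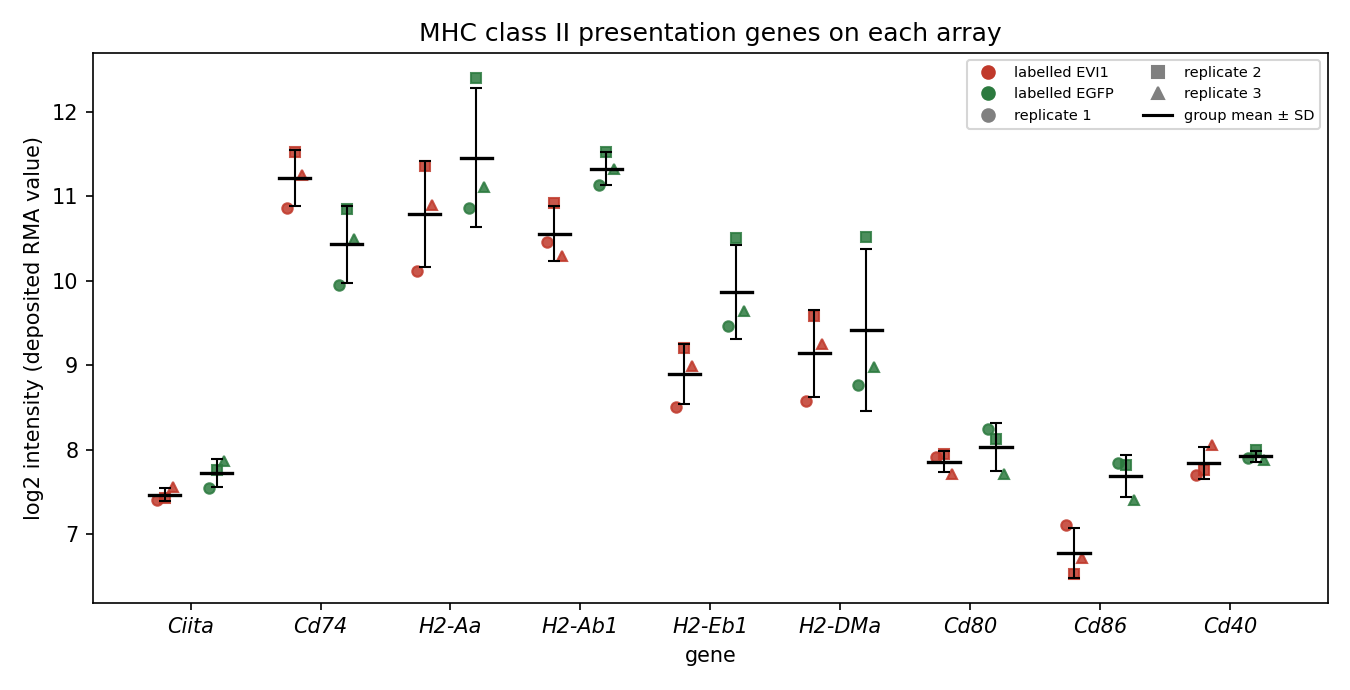
Deposited log2 intensity (vertical axis) of the 9 measured class II presentation genes on each of the 6 arrays. Red points are arrays labelled EVI1 and green points those labelled EGFP, with the shape giving the replicate number and the black bars the group mean ± SD. Cd74 lies higher, and H2-Ab1, H2-Eb1 and Cd86 lower, on every array labelled EVI1 than on every array labelled EGFP.

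Ciita (probe set 10433507), the master switch of class II transcription, did not pass. It read 7.41, 7.43 and 7.56 in the arrays labelled EVI1 and 7.55, 7.76 and 7.87 in those labelled EGFP. The highest EVI1 array and the lowest EGFP array overlapped narrowly. The log2 fold change was -0.26 ± 0.12 (SE, limma adjusted p = 0.200, and 0.125 with the block), and each same-numbered difference was negative.

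H2-Ab1 (10444291), the beta chain of the I-A molecule, fell. Its log2 intensity was 10.46, 10.92 and 10.30 in the arrays labelled EVI1, against 11.13, 11.52 and 11.33 in those labelled EGFP. The groups did not overlap. The means were 10.56 ± 0.32 in the arrays labelled EVI1 and 11.33 ± 0.20 in those labelled EGFP (SD, n = 3 each), a 1.70-fold fall (log2 fold change -0.77 ± 0.18 SE, limma adjusted p = 0.0195). The call was lost without EVI1 replicate 1 (0.0676), EVI1 replicate 3 (0.0801) or EGFP replicate 3 (0.0632).

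H2-Eb1 (10444298), the E beta chain gene, fell as well. The E alpha gene H2-Ea, described below, is annotated as a transcribed pseudogene, so this fall is read for the transcript only. It read 8.50, 9.21 and 8.99 in the arrays labelled EVI1, against 9.47, 10.51 and 9.64 in those labelled EGFP. Again every EVI1 array lay under every EGFP array. The fall was 1.96-fold (log2 fold change -0.97 ± 0.28 SE, limma adjusted p = 0.0476, and 0.00447 with the block). Its adjusted p was near the threshold: leaving out any 1 array but EGFP replicate 1 gave values from 0.0509 (without EGFP replicate 2) to 0.147 (without EVI1 replicate 1), the others being 0.0607 without EVI1 replicate 2, 0.127 without EVI1 replicate 3 and 0.0791 without EGFP replicate 3. Without EGFP replicate 2 the log2 fold change was -0.66.

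H2-Aa (10450154), the alpha chain of I-A, spread widely within both groups. Its values were 10.11, 11.36 and 10.90 in the arrays labelled EVI1 and 10.86, 12.40 and 11.11 in those labelled EGFP. The groups overlapped, and replicate 2 was the highest and replicate 1 the lowest of each. The log2 fold change of -0.67 ± 0.43 (SE) did not pass (limma adjusted p = 0.390). With the replicate block, whose pairing comes from these same data, the standard error was 0.16 and H2-Aa fell (adjusted p = 0.0314). The same-numbered differences were -0.75, -1.04 and -0.21. Without EGFP replicate 2 the log2 fold change was -0.20 in the unblocked fit.

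Cd74 (10456005), the invariant chain, lay in the opposite direction. It read 10.86, 11.52 and 11.25 in the arrays labelled EVI1, against 9.95, 10.85 and 10.50 in those labelled EGFP. The groups stood apart by a narrow margin, with EVI1 replicate 1 just above EGFP replicate 2. The log2 fold change was 0.78 ± 0.25 (SE), which did not pass without the block (limma adjusted p = 0.0636). With the block, whose pairing comes from these same data, Cd74 rose (0.78 ± 0.10 SE, adjusted p = 0.00299). The same-numbered differences were 0.92, 0.67 and 0.75. In the unblocked fit Cd74 passed without EVI1 replicate 1 (limma adjusted p = 0.0486) and without EGFP replicate 2 (0.0153). It did not pass without EVI1 replicate 2 (0.201), EVI1 replicate 3 (0.184), EGFP replicate 1 (0.150) or EGFP replicate 3 (0.134).

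H2-DMa (10444229), a chain of the peptide exchange factor H2-DM, did not pass. Its log2 intensity was 8.58, 9.59 and 9.26 in the arrays labelled EVI1 and 8.77, 10.52 and 8.98 in those labelled EGFP. EGFP replicate 2 was well above every other array, and the groups overlapped. The log2 fold change was -0.28 ± 0.45 (SE, limma adjusted p = 0.788), 0.27 without EGFP replicate 2 and 0.0013 without EVI1 replicate 1.

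**Figure D2:**
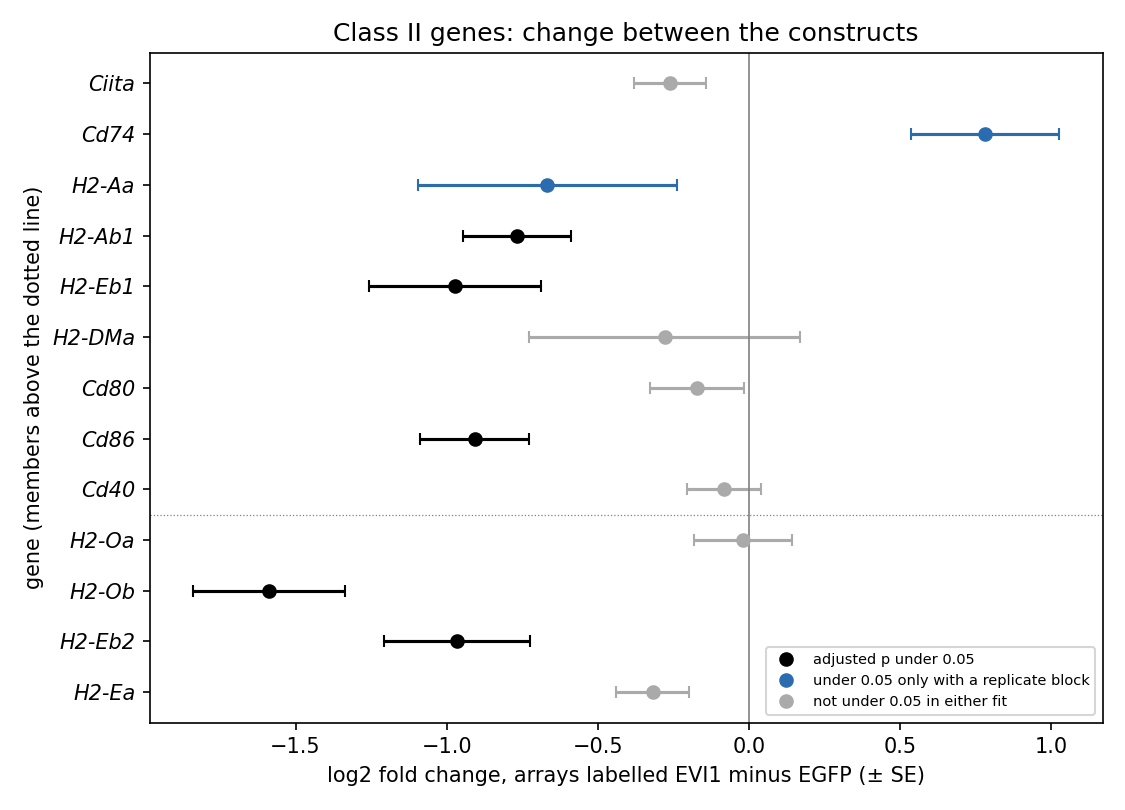
Log2 fold change (arrays labelled EVI1 minus EGFP, horizontal axis, with SE bars) of the 9 measured members, above the dotted line, and of 4 other class II region genes, below it. Black points passed an adjusted p of 0.05, blue points passed only with the replicate block and grey points passed in neither fit; Cd74 is the only point right of 0.

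The opposite directions of Cd74 and the chain genes were described as a difference within each array, with no test, because this pairing was chosen after the values were seen. The Cd74 minus H2-Eb1 log2 difference was 2.36, 2.32 and 2.27 in the arrays labelled EVI1, against 0.48, 0.34 and 0.86 in those labelled EGFP. For H2-Ab1 the Cd74 difference was 0.40, 0.60 and 0.96 in the arrays labelled EVI1, against -1.18, -0.67 and -0.83 in those labelled EGFP. For H2-Aa it was 0.75, 0.16 and 0.36 in the arrays labelled EVI1, against -0.91, -1.55 and -0.61 in those labelled EGFP. All 3 differences were thus higher on every array labelled EVI1, by 1.75, 1.55 and 1.45 log2 units on average. Against the mean of the 3 chain genes, Cd74 was 3.00-fold higher relative to them in the arrays labelled EVI1 than in those labelled EGFP. The sign of a single such difference depends on the probe sets, and the contrast between groups shows unequal change. Replicate 2, highest in both groups for Cd74 and for each chain gene, did not stand apart in these differences for H2-Ab1 or H2-Eb1.

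**Figure D3:**
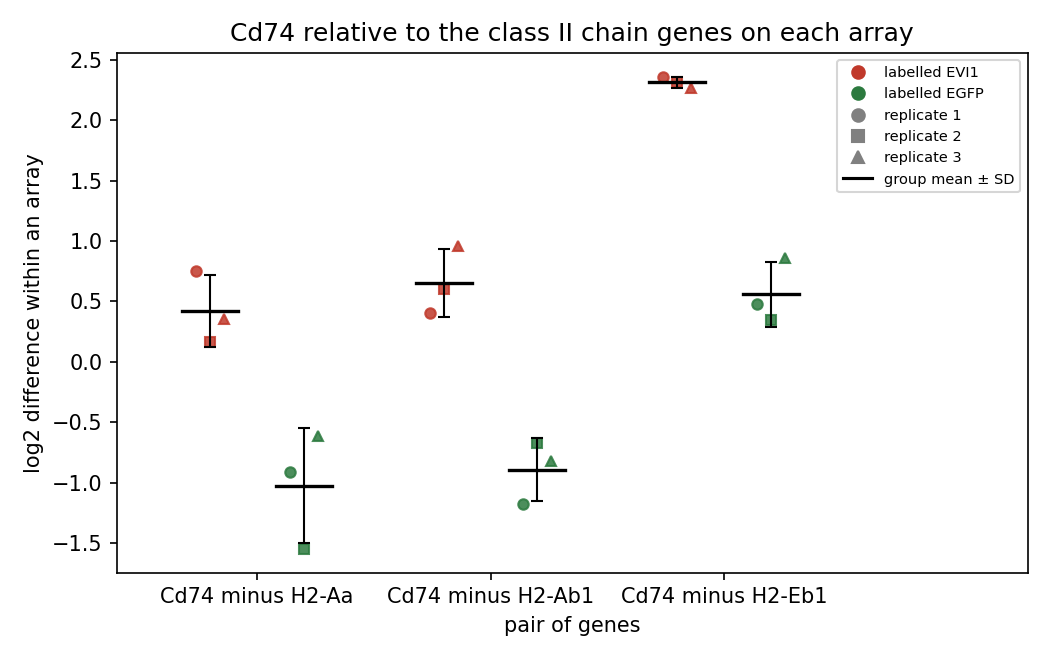
Log2 difference between Cd74 and each of 3 class II chain genes within an array (vertical axis), for the arrays labelled EVI1 (red) and EGFP (green), with black bars for the group mean ± SD. For all 3 pairs the EVI1 arrays lie above the EGFP arrays, by 1.45 to 1.75 log2 units on average.

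The costimulatory genes parted, with a fall for Cd86 and no call for Cd80 or Cd40. Cd86 (10439312) read 7.11, 6.53 and 6.72 in the arrays labelled EVI1, against 7.84, 7.82 and 7.41 in those labelled EGFP. The groups did not overlap. Its fall was 1.88-fold (log2 fold change -0.91 ± 0.18 SE, limma adjusted p = 0.0100), and 0.0511 without EVI1 replicate 3. The EVI1 mean of 6.78 lay under the olfactory receptor yardstick, so the size of the fall is uncertain.

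Cd80 (10435704), the other ligand of CD28, read 7.92, 7.95 and 7.72 in the arrays labelled EVI1 and 8.25, 8.13 and 7.71 in those labelled EGFP. The groups overlapped, at a log2 fold change of -0.17 ± 0.16 (SE, limma adjusted p = 0.574). A second, dimmer Cd80 probe set differed by 0.081. Cd40 (10478678), a tumor necrosis factor receptor family member, read 7.70, 7.76 and 8.06 in the arrays labelled EVI1 and 7.90, 7.99 and 7.88 in those labelled EGFP. These overlapped too (-0.083 ± 0.12 SE, limma adjusted p = 0.767).

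Of the 9 members, 3 lay lower and 1 higher on all arrays labelled EVI1 than on all arrays labelled EGFP, against 16.5% lower and 16.1% higher among all genes, 32.6% in either direction. All 3 same-numbered differences were negative for 5 members and positive for 1, against 25.1% and 26.6% of all genes. Replicate 2 was the highest array of both groups for Cd74, H2-Aa, H2-Ab1, H2-Eb1 and H2-DMa, 5 of 9 members, and for 14.4% of all genes. Without both arrays numbered 2, an alternative added after this was seen, 3 members fell (H2-Ab1, H2-Eb1 and Cd86) and Cd74 rose (0.84, adjusted p = 0.0354).

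Other genes of the class II region went the same way as the chain genes or did not pass. Of 4 measured genes 2 fell and none rose (3 lower and 0 higher at an unadjusted p under 0.05), against 9.18% of all genes that fell. The median log2 fold change was -0.64. H2-Ob, the beta chain of the H2-DM inhibitor H2-O, read 7.08, 7.27 and 7.06 in the arrays labelled EVI1, against 8.85, 9.22 and 8.11 in those labelled EGFP. The groups were well apart, at a 3.00-fold fall (log2 fold change -1.59 ± 0.25 SE, limma adjusted p = 0.00362). Its partner H2-Oa did not pass (-0.019 ± 0.16 SE). H2-Eb2, a second E beta gene, fell by 0.97 ± 0.24 (SE) on the log2 scale (adjusted p = 0.0256), with an EVI1 mean of 6.54 under the yardstick. H2-Ea, the E alpha gene annotated as a transcribed pseudogene in RefSeq, lay under the yardstick in both groups (-0.32 ± 0.12 SE, adjusted p = 0.121). Leaving out EVI1 replicate 1, 2 or 3 left 1 gene with a fall.

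The factors that assemble on class II promoters went both ways. The 12 genes held 3 that rose, 2 that fell and 7 without a call, where 18.2% of all genes changed. Their median log2 fold change was -0.014. Rfxank, a subunit of the X box factor RFX, rose by 0.49 ± 0.12 (log2 fold change ± SE here and in the next paragraphs, adjusted p = 0.0208). The acetyltransferases Kat2b (0.70 ± 0.13) and Ep300 (0.53 ± 0.13) rose, while the arginine methyltransferase Carm1 (-0.89 ± 0.13) and the chromatin remodelling ATPase Smarca4 (-0.40 ± 0.10) fell. Without EVI1 replicate 1, 2 or 3 the number that changed was 2, and it was also 2 without both arrays numbered 2. The remaining RFX subunits Rfx5 (0.35 ± 0.11) and Rfxap (-0.069 ± 0.12) and the Y box factor genes Nfya (-0.051 ± 0.11), Nfyb (-0.38 ± 0.12) and Nfyc (-0.17 ± 0.10) did not pass.

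Genes of the interferon gamma path to Ciita, a list that includes inhibitors of the path, were higher or did not pass. Of 10 measured genes 3 rose and none fell (5 higher and 0 lower at an unadjusted p under 0.05), against 9.06% of all genes that rose. The median was 0.27. Irf1, which activates an inducible Ciita promoter, read 10.53, 10.71 and 11.00 in the arrays labelled EVI1, against 8.23, 8.84 and 8.23 in those labelled EGFP. That is a 4.97-fold rise with no overlap (2.31 ± 0.20, limma adjusted p = 0.000243). Irf2 (0.91 ± 0.12) and the kinase Jak2 (0.67 ± 0.13) rose, and the receptor chain Ifngr2 (0.58 ± 0.21) passed only with the block (adjusted p = 0.0164). Ciita itself, as given above, did not pass.

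Most genes of the endosomal list, which prepares peptides and trims CD74, were higher in the arrays labelled EVI1. Of 13 genes 8 rose and none fell (10 higher and 0 lower at an unadjusted p under 0.05), against 9.06% of all genes that rose. The median was 0.72. Cathepsin S (Ctss), which makes the last cut of CD74, read 12.86, 12.89 and 13.01 in the arrays labelled EVI1, against 11.94, 12.15 and 11.66 in those labelled EGFP. It rose 2.00-fold (1.00 ± 0.14, adjusted p = 0.00203) with no overlap. Cathepsin L (Ctsl, 2.33 ± 0.25), the asparaginyl endopeptidase legumain (Lgmn, 2.72 ± 0.34), and cathepsins Z (Ctsz, 0.88 ± 0.13) and B (Ctsb, 1.13 ± 0.27) rose. So did the thiol reductase GILT (Ifi30, 1.02 ± 0.17), Sppl2a, an intramembrane protease that clears the CD74 remnant (0.72 ± 0.11), and the lysosomal membrane protein Lamp2 (0.45 ± 0.12). Cathepsin D (Ctsd, -0.013 ± 0.11) and the ubiquitin ligases of class II turnover, Marchf1 (0.033 ± 0.16) and Marchf8 (0.078 ± 0.17), did not pass. The membrane proteins Cd63 (0.38 ± 0.13) and Lamp1 (0.37 ± 0.11) rose with the block only (adjusted p = 0.0434 and 0.0323).

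CD74 also serves as a receptor for the cytokine MIF. Of 5 ligands and coreceptors 1 rose, the MIF homologue Ddt (0.72 ± 0.16, adjusted p = 0.0159), and 4 did not pass. This share is near the 18.2% of all genes that changed. With the block the chemokine receptors Cxcr4 (-0.70, adjusted p = 0.0351) and Cxcr2 (-0.34, adjusted p = 0.0495) fell. Mif (-0.15 ± 0.16) and the coreceptor Cd44 (-0.22 ± 0.15) did not pass. Without EVI1 replicate 2 or EGFP replicate 3 none of the 5 passed, with 1 at an unadjusted p under 0.05 each time, and without EVI1 replicate 1 or EGFP replicate 2 the count was 2.

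Among 12 other B7 and costimulatory ligands 3 fell, 1 rose and 8 did not pass, where 18.2% of all genes changed. The median was -0.21. OX40 ligand (Tnfsf4) read 6.76, 7.18 and 6.54 in the arrays labelled EVI1, against 8.23, 8.84 and 8.01 in those labelled EGFP, a 2.90-fold fall with no overlap (-1.53 ± 0.24, adjusted p = 0.00311). PD-L2 (Pdcd1lg2, -1.08 ± 0.30) and the checkpoint protein VISTA (Vsir, -0.58 ± 0.17) fell. The EVI1 means of Tnfsf4 and Pdcd1lg2 lay under the yardstick. The ligand of 4-1BB (Tnfsf9) rose 2.06-fold (1.04 ± 0.13). Without EVI1 replicate 2, EVI1 replicate 3 or EGFP replicate 1 the number that changed was 2. Downstream of CD40, 4 of 10 measured genes rose and none fell (5 higher and 0 lower at an unadjusted p under 0.05), against 9.06% of all genes that rose. They were the adaptor Traf1 (0.95 ± 0.25), the NF-kappaB subunit Relb (0.62 ± 0.12) and the ubiquitin ligases Birc2 (0.50 ± 0.14) and Birc3 (0.64 ± 0.11). The number that changed in this list was 2 without EVI1 replicate 1, 2 or 3 or EGFP replicate 3.

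**Figure D4:**
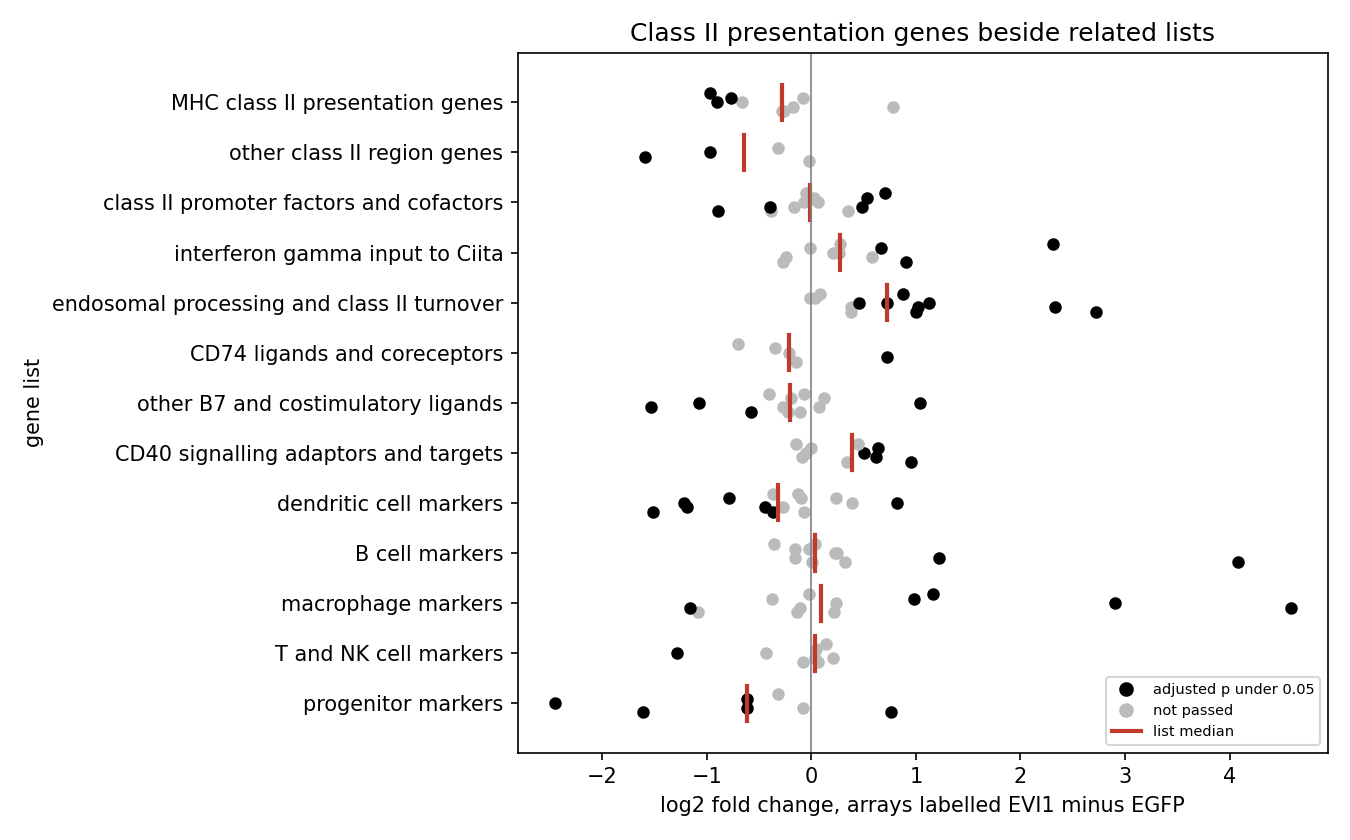
Log2 fold change (arrays labelled EVI1 minus EGFP, horizontal axis) of each measured gene in the class II presentation genes and 12 related lists (vertical axis). Black points passed an adjusted p of 0.05, grey points did not and red bars are list medians; the endosomal list has its median at 0.72 and the class II presentation genes at -0.28.

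Some markers of cells that carry class II differed between the groups too, and their part in the results above was not tested. In bulk RNA, fewer cells of a type and less RNA per cell cannot be told apart. Of 14 dendritic cell markers 6 fell, 1 rose and 7 did not pass, where 18.2% of all genes changed. Array means of that list ran from 7.12 to 7.22 in the arrays labelled EVI1 and from 7.45 to 7.70 in those labelled EGFP, without overlap. Those that fell were the integrin Itgax (-1.19 ± 0.17), the cytokine receptor Flt3 (-1.52 ± 0.23), the chemokine receptor Ccr7 (-1.22 ± 0.30), the actin bundler Fscn1 (-0.79 ± 0.19), the lectin Clec10a (-0.44 ± 0.12) and the transcription factor Batf3 (-0.36 ± 0.10), which did not pass with the block (adjusted p = 0.0529). The chemokine receptor Ccr9 rose (0.82 ± 0.17), with an EGFP mean of 6.91 under the yardstick. Ccr7 read 8.14, 8.48 and 8.45 in the arrays labelled EVI1, against 9.19, 10.37 and 9.17 in those labelled EGFP. Its highest array was EGFP replicate 2, as for H2-Aa, H2-Ab1, H2-Eb1 and H2-DMa. That array was the highest of the EGFP group for 32.7% of all genes, and the likeness was not tested. Clec9a, Xcr1, Cd209a and Clec10a lay under the yardstick in both groups, and the EVI1 means of Itgax and Zbtb46 did as well. The dendritic list had 3 changed genes without EVI1 replicate 1 or 2 and 2 without EVI1 replicate 3.

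Macrophage markers went both ways, with 4 of 12 up and 1 down, where 18.2% of all genes changed. Array means of the list were 8.67 to 8.82 in the arrays labelled EVI1 and 7.99 to 8.35 in those labelled EGFP. Mertk (2.91 ± 0.21), Spic (4.58 ± 0.42), Cd68 (1.16 ± 0.19) and Mrc1 (0.99 ± 0.23) rose, with the EGFP mean of Mertk (6.45) under the yardstick, and Csf1r, the receptor for macrophage colony-stimulating factor, fell (-1.16 ± 0.27). Without EVI1 replicate 3 the count was 3. The Csf1r call was lost without EVI1 replicate 2, EVI1 replicate 3, EGFP replicate 1 or both arrays numbered 2. With the block Adgre1 (-1.08, adjusted p = 0.00233) and Fcgr1 (-0.37, adjusted p = 0.0444) fell too. Timd4, Vcam1 and C1qc lay under the yardstick in both groups. The list's median log2 fold change was 0.096, with 6 genes above 0 and 6 below it.

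For B cells, 2 of 11 measured markers rose, Fcer2a (4.08 ± 0.20) and Cd79b (1.22 ± 0.20), where 18.2% of all genes changed. None fell, and the 1 lower at an unadjusted p under 0.05 was Cd22 (-0.35 ± 0.11, limma adjusted p = 0.0601). Its EVI1 mean of 6.69 lay under the yardstick. With the 25th percentile filter, a further quantile normalisation, trended and robust variances or array weights, 1 B cell marker fell. The EGFP mean of Fcer2a, 6.26, lay under the yardstick, so the size of its rise is uncertain. The array means of the B cell list were 7.05 to 7.18 in the arrays labelled EVI1 and 6.57 to 6.67 in those labelled EGFP, and its median log2 fold change was 0.031. Cd79a, Ms4a1, Ebf1, Cr2 and Blnk lay under the yardstick in both groups. Among 8 T and NK cell markers Cd3g fell (-1.28 ± 0.29, with an EVI1 mean of 5.79 under the yardstick), none rose (0 higher and 2 lower at an unadjusted p under 0.05), and 5 lay under the yardstick in both groups. Klrb1c fell with the block only (adjusted p = 0.0332). Without EVI1 replicate 1, 2 or 3 no T and NK cell marker passed, with 1, 1 and 2 at an unadjusted p under 0.05, and without EGFP replicate 2 the count was 2. The array means of this list were 6.30 to 6.42 in the arrays labelled EVI1 and 6.43 to 6.58 in those labelled EGFP, with a median log2 fold change of 0.038 and 5 of 8 genes above 0.

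The labelled progenitor identity was checked on 7 measured markers, of which none lay under the yardstick in both groups. Of these 4 fell and 1 rose, where 18.2% of all genes changed. Array means were 9.72 to 9.81 in the arrays labelled EVI1 and 10.45 to 10.48 in those labelled EGFP. Cd34 (-2.45 ± 0.20), Myb (-1.61 ± 0.16), Kit (-0.61 ± 0.14) and Cd48 (-0.61 ± 0.17) fell, and the pan-leukocyte gene Ptprc (0.76 ± 0.12) rose. Without EVI1 replicate 2 or EGFP replicate 3 the count was 3.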

How the data were processed

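Expression was measured on 6 arrays, 3 per construct. The authors deposited log2 intensities, and the submitters' processing notes name RMA, whose version is not given in the sources used here. RMA makes array distributions alike (medians 7.24 to 7.31), so a change of total RNA per cell would not show. The number of arrays limits the precision.

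Of 34760 probe sets, 21640 carried 1 gene symbol, 1321 several and 11799 were unnamed here. Each of 19937 genes was represented by its brightest probe set (mean over all arrays), without a filter on dim signal. The test was limma's moderated linear model (version 3.58.1, R 4.3.3, two-sided), with Benjamini-Hochberg adjustment over all genes and a threshold of 0.05. The fit was tested on simulated data. Log2 fold changes are EVI1 minus EGFP.

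Same-numbered arrays deviated together from their groups (correlation over genes 0.491, 0.269 and 0.197 for replicates 1, 2 and 3), so the numbers were taken to pair the arrays, a pairing that comes from the data. Arrays of different number were not compared in this way. Blocked values are given where they change the call of a named gene.

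The members and the 12 other lists were chosen with earlier results of these data known. Named genes were the 10 members, Mecom, the up to 4 members of each other list with the smallest p and the 5 genes most like Cd74. Rfx5, Rfxap, Nfya, Nfyb, Nfyc, Smarca4, Ctsb, Ifi30, Sppl2a, Lamp2, Cd63, Lamp1, Ctsd, Marchf1, Marchf8, Mif, Ccr7, Clec10a, Batf3, Clec9a, Xcr1, Cd209a, Zbtb46, Csf1r, Adgre1, Fcgr1, Timd4, Vcam1, C1qc, Ms4a1, Ebf1, Cr2, Blnk and Cd48 were added after their values were seen. Traf3, Ly6a, H2-DMb1 and H2-DMb2 were not analysed here. Alternatives were the replicate block, other probe set choices, filters on dim genes, a further quantile normalisation, trended and robust variances, array weights and leaving out each array. Leaving out both arrays numbered 2 was added after the values were seen.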

Additional observations from a re-analysis of the deposited data

How the results depend on the processing

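Ciita, Cd74, H2-Aa, H2-Ab1, H2-Eb1, Cd86 and Cd40 kept their direction in every alternative in which they were tested. The block, probe set choices, filters on dim genes and trended and robust variances cannot change the log2 fold change of these genes. Their direction could thus change only with a further quantile normalisation, array weights or arrays left out. Cd86, which a filter on the median level removes, passed in 13 of 14 alternatives, H2-Ab1 in 12 of 15, H2-Eb1 in 9 of 15, Cd74 in 6 and H2-Aa in 1. These counts include the omission of both arrays numbered 2, added after the values were seen, in which all of these but H2-Aa passed. Besides the array omissions and the block, Cd74 passed with array weights (adjusted p = 0.0360) and without genes under the median level (0.0463), where fewer genes are tested, and H2-Eb1 did not pass after a further quantile normalisation (0.0531). H2-DMa ran from -0.61 (without EGFP replicate 1) to 0.27 over the single array omissions. It turned to 0.0013 without EVI1 replicate 1, 0.27 without EGFP replicate 2 and 0.048 without both arrays numbered 2, and Cd80 to 0.081 with its dimmer probe set; the cause was not tested.

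With the replicate block 5 members changed, as did 3 of the CD74 ligands and coreceptors and 2 T and NK cell markers; it moved no other count by over 1.5 times. Without genes under the median level 1 other class II region gene, 3 dendritic cell markers and no (0) T and NK cell marker passed. Without those under the 25th percentile 0 T and NK cell markers passed. No T and NK cell marker had an unadjusted p under 0.05 in either case, since Cd3g and Klrb1c were no longer tested. With array weights 2 T and NK cell markers passed. Without both arrays numbered 2 the promoter factors had 2 calls and the macrophage markers 3. Leaving out 1 array at a time gave 0 to 3 changed members and 2289 to 4098 changed genes. The counts were 1 to 2 for other class II region genes, 2 to 5 for promoter factors, 0 to 2 for CD74 ligands and coreceptors, 2 to 5 for other costimulatory ligands and 2 to 5 for CD40 signalling. They were 2 to 6 for dendritic, 3 to 5 for macrophage, 0 to 2 for T and NK and 3 to 5 for progenitor markers. Means under the olfactory receptor yardstick limit how well sizes are known, for the falls of Cd86, H2-Eb2, Itgax, Tnfsf4, Pdcd1lg2, Cd3g and Clec10a and the rises of Fcer2a, Mertk and Ccr9.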

Other observations

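The 5 genes whose values over the 6 arrays were most like those of Cd74, by Pearson correlation, were Fam171a1 (r = 0.995), Gxylt2 (0.995), Alad, an enzyme of heme synthesis (0.994), Cs, the citrate synthase (0.994), and Rhog, a small GTPase (0.991). The 6 arrays share groups and replicate numbers, so these values are a description without a test. Rhog rose by 0.62 ± 0.17 (log2 fold change ± SE, limma adjusted p = 0.0370). Alad (0.40 ± 0.15) and Cs (0.34 ± 0.14) passed only with the replicate block (adjusted p = 0.0292 and 0.0454), and Fam171a1 (0.20 ± 0.11) and Gxylt2 (0.29 ± 0.13) passed in neither fit. Among the class II presentation genes the same correlation with Cd74 ran from -0.841 for Cd86 to 0.388 for H2-DMa.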
